A study of Rattus norvegicus with 6 samples.

Results

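Hnf4a, Foxa1, Foxa2 and Foxa3 encode transcription factors of liver and pancreas, and their messenger RNA was measured here in AR42J, an acinar tumour line from rat pancreas. Probe sets were taken where the platform annotation gave 1 of these 4 symbols, which found 5 probe sets among 15866, for 4 of 10411 genes with a probe set of their own. Cultures received 100 nM dexamethasone, a synthetic glucocorticoid, for 48 h (dexamethasone, n = 3) or the same medium without it (control, n = 3), and RNA from each culture was hybridised to 1 Affymetrix Rat 230A array. Both groups were the same line thawed at passage 29, plated for 24 h in 20% serum and then held in 5% serum, so all values belong to a single line at 1 dose and 1 time. The experiment was run 3 times over 5 months, and arrays with the same replicate number were treated as a pair.

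HNF4A is a nuclear receptor that binds DNA as a homodimer and controls many genes of lipoprotein, bile acid and glucose metabolism in liver. FOXA proteins carry a winged-helix (forkhead) DNA-binding domain and can open compact chromatin, which lets other factors bind. In rodents they are needed for liver and pancreas to form, and in liver they bind beside glucocorticoid receptor sites at genes such as Tat. Hnf4a has a pair of alternative promoters, of which the upstream one is known for its use in pancreatic cells and the downstream one for its use in hepatocytes.

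The 250 bases upstream of annotated starts are shown for the member whose signal passed the test and for Foxa2, the member nearest the threshold, because HNF6, a partner factor described with the results, is known to bind promoters of both genes. They come from RefSeq on the rat assembly GRCr8, whose promoter table matched 3 of the 4 members. The annotated starts of Hnf4a lie 35.6 kb apart, and the upstream one is shown because its window held a match. In the lines that follow, capitals mark the core of the HNF6 motif (ATTGAT), searched on both strands.
Hnf4a, upstream start, chr3:172605970-172606219, plus strand: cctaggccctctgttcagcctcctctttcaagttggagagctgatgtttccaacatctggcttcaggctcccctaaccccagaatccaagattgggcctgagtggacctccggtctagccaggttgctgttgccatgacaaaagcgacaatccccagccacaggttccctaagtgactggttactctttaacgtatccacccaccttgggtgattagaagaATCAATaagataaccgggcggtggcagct
Foxa2, chr3:155927509-155927758, minus strand: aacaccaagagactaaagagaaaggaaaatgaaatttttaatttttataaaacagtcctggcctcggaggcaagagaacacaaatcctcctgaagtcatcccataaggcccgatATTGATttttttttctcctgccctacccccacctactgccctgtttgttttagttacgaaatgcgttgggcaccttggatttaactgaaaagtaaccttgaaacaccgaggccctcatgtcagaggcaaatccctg

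The HNF6 core occurred once before the upstream Hnf4a start, 29 to 24 bases before it, and once in the Foxa2 window, 136 to 131 bases before the start. Of 33465 promoter windows of this length, 7.1% held such a match, and the window of the downstream Hnf4a start held none. Motifs for FOXA (TGTTTAC, in 3.22% of all windows) and HNF4 (CAAAGTCCA, in 0.338%) had no match in either Hnf4a window or in those of Foxa2 and Foxa3, nor did the full glucocorticoid receptor element (AGAACA and TGTTCT, 3 bases apart, in 0.012%). AGAACA by itself occurred once in the Foxa2 window and is common, in 17.5% of all windows. The Foxa3 window held no match to any of these motifs and was richer in G and C, at 69.6% against a median of 51.2% over all windows. A match is a run of letters and not a measured binding site, and the motifs were chosen for factors already known to act with these genes.

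Of the 4 genes, Hnf4a rose, Foxa2 and Foxa3 did not pass the test, and Foxa1 was too dim to enter it. Values are MAS5 signals in arbitrary linear units, which the authors' software scaled within each array, and signals of different probe sets cannot be compared as amounts. A background level per array was taken as the highest of 27 control probe sets for bacterial genes, and ran from 83.7 to 115.9 on dexamethasone arrays and from 51.7 to 97.3 on control arrays. The test was limma on log2 signals of the 9520 probe sets that were bright enough. Changes are given on the log2 scale ± SE, positive where dexamethasone was higher, and p-values were adjusted over all 9520 by Benjamini-Hochberg.

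The brighter Hnf4a probe set had signals of 411.3, 526.0 and 406.6 with dexamethasone, against 236.3, 267.5 and 242.0 in controls. Every treated array lay above every control array, and all 6 were above background. The mean was 448 ± 67.6 with dexamethasone and 248.6 ± 16.6 in controls (SD, n = 3 each), a rise of 0.84 ± 0.16 on the log2 scale, or 1.79-fold (95% confidence interval 1.39 to 2.31, limma adjusted p = 0.00388). The paired ratios of dexamethasone over control were 1.74, 1.97 and 1.68 in replicates 1 to 3. Of all probe sets tested, 37.1% were called in either direction, 15.9% higher and 21.2% lower, and the groups did not overlap in 49.7%. A change at least as high as that of Hnf4a was fitted for 6.44% of them.

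A second Hnf4a probe set was dimmer, and its mean fell short of the signal of 147.6 needed for the test. It read 82.6, 228.3 and 193.7 with dexamethasone, against 67.5, 100.8 and 136.2 in controls. Each pair was higher with dexamethasone, but the groups overlapped, and the treated array of replicate 1 was not above background. In a fit over all 15866 probe sets, where 20.9% were called, 8.65% higher and 12.2% lower, the change was 0.66 ± 0.29 with an interval of -0.03 to 1.35 (limma adjusted p = 0.164). It thus neither passed the test nor differed in direction from the brighter probe set. The files do not give the probes' positions, so neither probe set could be assigned to transcripts from the upstream or the downstream promoter.

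Foxa1, which acts with Foxa2 in early liver and pancreas, read 98.6, 117.2 and 88.5 with dexamethasone, against 39.8, 87.7 and 20.6 in controls. No control array and 1 of 3 dexamethasone arrays rose above background. The background level itself was higher with dexamethasone in 2 of 3 pairs, so no fold is given. The groups did not overlap, as in 39.2% of all 15866 probe sets, and in the fit over all of them the change was 1.28 ± 0.42 (limma adjusted p = 0.0744). Foxa1 was thus not well above background in either group, and no call was made.

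Foxa2, needed in mouse for liver and pancreas genes and in islets for insulin secretion, was far above background on all arrays. It read 2625.7, 2246.7 and 2399.6 with dexamethasone, against 2735.9, 3310.5 and 3272.2 in controls. The groups did not overlap, but in replicate 1 the paired ratio was 0.960, against 0.679 and 0.733 in replicates 2 and 3. The mean was 2424 ± 191 with dexamethasone and 3106 ± 321 in controls (SD, n = 3 each). The change of -0.36 ± 0.13 just missed the threshold (limma adjusted p = 0.0559, unadjusted p = 0.0214), with an interval of -0.64 to -0.07. Without the replicate block the same change passed (limma adjusted p = 0.0374), and it was larger without replicate 1 (-0.50, adjusted p = 0.0284).

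Foxa3, a FOXA gene expressed in adult liver and gut, read 642.2, 690.2 and 485.1 with dexamethasone, against 580.4, 501.1 and 540.0 in controls. All arrays were above background and the groups overlapped, since the treated array of replicate 3 was the lowest of the 6. The mean was 605.8 ± 107.3 with dexamethasone and 540.5 ± 39.7 in controls (SD, n = 3 each). The change was 0.15 ± 0.16 with an interval of -0.22 to 0.52 (limma adjusted p = 0.506), so the ratio of dexamethasone over control could lie between 0.860 and 1.43.

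**Figure D1:**
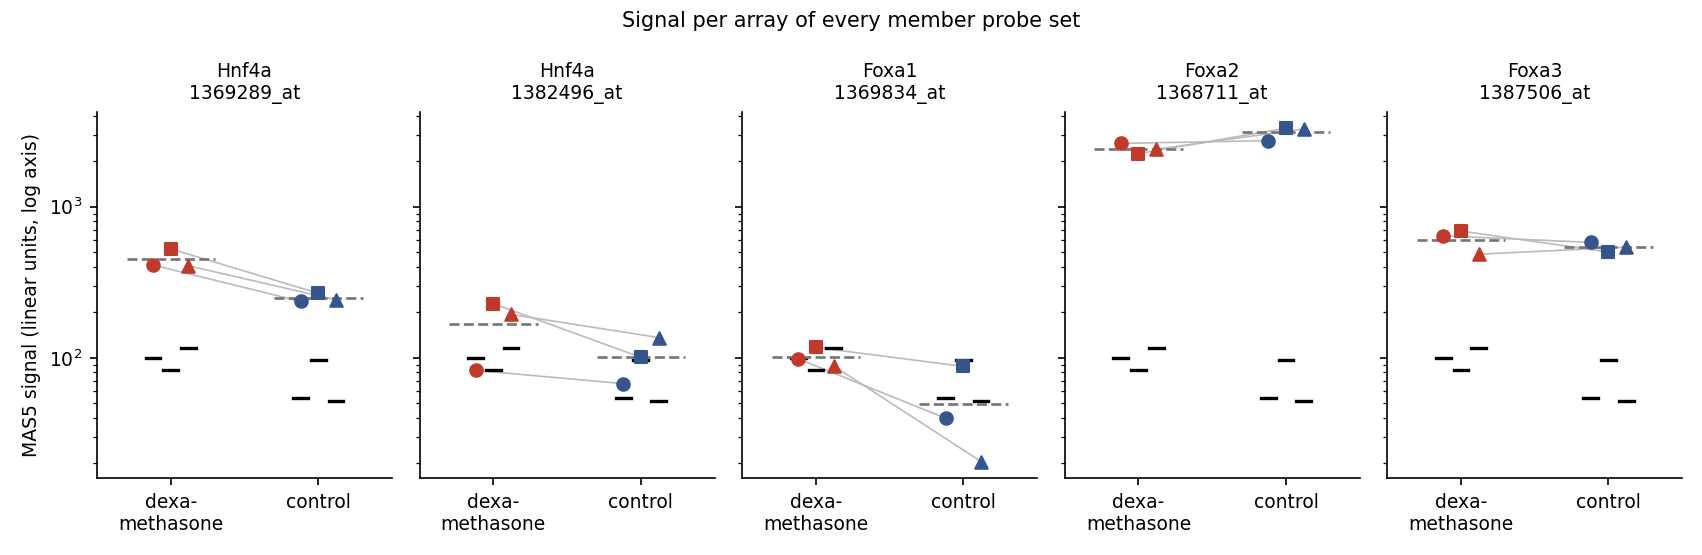
MAS5 signal (log axis) of all 5 probe sets on each array, dexamethasone in red and control in blue, with circles, squares and triangles for replicates 1, 2 and 3 and grey lines joining pairs. Dashed lines are group means and short black bars the background level of the same array: the brighter Hnf4a probe set is higher on all 3 treated arrays, while Foxa1 lies at or near background.

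Whether members moved differently was asked on the difference of their log2 signals within each array, 1 probe set a gene, for all 6 pairs of members. The change of Hnf4a exceeded that of Foxa2 by 1.20 on the log2 scale (paired values 0.86 to 1.53) and that of Foxa3 by 0.69 (0.51 to 0.90), in 3 of 3 pairs each. Both gave an exact two-sided permutation p of 0.10, the smallest that 3 against 3 arrays allow, and adjusted over the 6 comparisons 0.20. The difference Foxa2 minus Foxa3 was -0.51, below 0 in 3 of 3 pairs (exact permutation p = 0.20, adjusted 0.30). The comparisons with Foxa1 rest on its near-background signal. Foxa1 minus Foxa2 was 1.63 (exact permutation p = 0.10, adjusted 0.20), Foxa1 minus Foxa3 was 1.13 (p = 0.30, adjusted 0.36) and Hnf4a minus Foxa1 was -0.44 (p = 0.70, adjusted 0.70), with paired values of -1.35 to 0.56.

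Scaling each array by another constant shifted the tested members in the same direction, while quantile normalization moved them apart, to 0.94 for Hnf4a, 0.27 for Foxa3 and -0.47 for Foxa2. Over the probe sets tested, the median change was -0.05 with the deposited scaling, 0.08 with arrays centred on their 75th percentile and -0.29 with arrays scaled to 18 hybridization controls, and the share of calls that were higher was 42.8%, 57.5% and 19.3%. Under these 3 scalings Hnf4a rose by 0.84, 0.97 and 0.59 and passed each time. Foxa2 was lower by each, at -0.36, -0.23 and -0.60, but passed only with the hybridization controls among these 3 (limma adjusted p = 0.00551). Foxa3 passed with none, and its sign turned with the hybridization controls (-0.10).

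**Figure D2:**
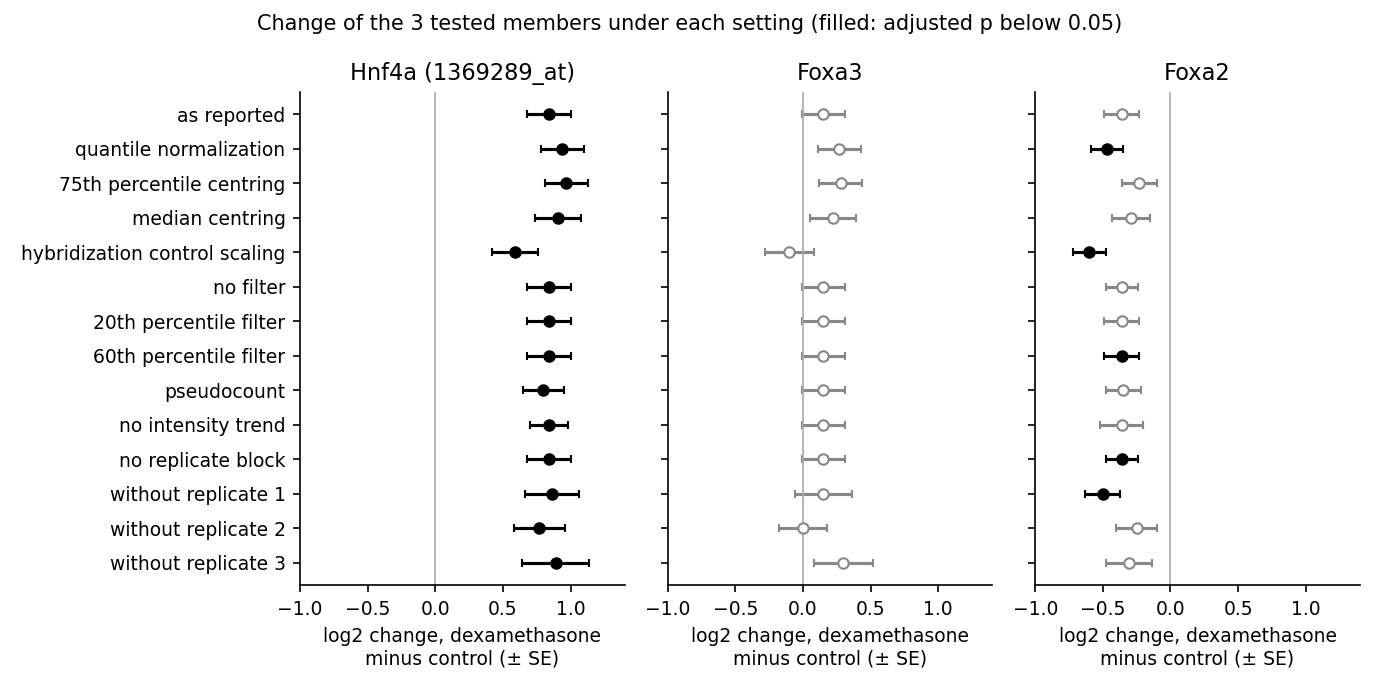
Log2 change (dexamethasone minus control, ± SE) of Hnf4a, Foxa3 and Foxa2 as reported and under each alternative setting, filled where the limma adjusted p is below 0.05. Hnf4a is filled in every setting, between 0.59 and 0.97, Foxa3 in none, and Foxa2 in quantile normalization, hybridization control scaling, the 60th percentile filter, no replicate block and without replicate 1.

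Among transcription factors that work beside HNF4A and FOXA in liver and pancreas, Onecut1, which encodes HNF6, fell most. It read 255.3, 243.8 and 282.9 with dexamethasone, against 814.3, 1034.3 and 827.7 in controls. The groups were far apart, with means of 260.7 ± 20.1 and 892.1 ± 123.3 (SD, n = 3 each), a change of -1.77 ± 0.16 (limma adjusted p = 6.4e-05), so that controls were 3.41-fold higher. Its other probe set read 91.7, 125.0 and 164.9 with dexamethasone, against 315.7, 337.3 and 285.1 in controls, and fell too (-1.34 ± 0.24, limma adjusted p = 0.00258). That probe set was above background on 2 of 3 dexamethasone arrays. With a dexamethasone mean below 147.6, it passed the filter only through its control arrays, so its call partly repeats the filter. In rodents HNF6 is known to bind the promoters of Foxa2 and Hnf4a, and its core motif is the one shown above in the window of Foxa2 and of the upstream Hnf4a start. Hnf4a rose while Onecut1 fell, and whether HNF6 bound or changed either gene in these cells was not tested.

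Of 30 listed partner factors, 25 were on the array, 14 were bright enough to test, 4 rose, 5 fell and 5 did not pass. Cebpb and Nr1h3, among the 4 that rose, passed the filter only through their dexamethasone arrays, so this count partly repeats the filter. Over all 7051 genes tested 38.4% were called, 17.0% higher and 21.4% lower. The list median was -0.40, against -0.04 over all genes. With hybridization control scaling 3 rose and 9 fell, with 75th percentile centring 4 rose and 3 fell, and in the fit over all probe sets, which adds the dim members, the median was 0.28. Groups and list sizes are small, and the list was written with earlier results of these data known.

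Nuclear receptors of the list moved in both directions. Nr1h3, the liver X receptor that senses oxysterols, read 368.7, 488.3 and 348.0 with dexamethasone, against 126.8, 103.5 and 125.3 in controls, a rise of 1.75 ± 0.22 (limma adjusted p = 0.000359). Nr0b2 encodes SHP, which lacks a DNA-binding domain and represses HNF4A and other receptors. It read 629.6, 455.9 and 737.5 with dexamethasone, against 327.3, 402.1 and 332.2 in controls (0.76 ± 0.20, adjusted p = 0.0178), with replicate 2 the weakest pair at 0.18. Nr2f2, which encodes COUP-TFII, a receptor that can occupy HNF4A sites, fell to 415.0, 376.3 and 540.4 with dexamethasone, against 982.0, 793.3 and 742.1 in controls (-0.93 ± 0.18, adjusted p = 0.00395). The second probe set of Nr2f2, at -1.03 ± 0.42, missed the threshold (adjusted p = 0.0847). Nr0b2 was no longer called with hybridization control scaling (adjusted p = 0.0562) and without replicate 1 (0.102) or 3 (0.0542).

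Prox1, a homeobox factor of liver and pancreas that binds HNF4A, read 524.3, 903.5 and 964.5 with dexamethasone, against 1587.2, 1246.7 and 1251.1 in controls. Its fall of 0.81 on the log2 scale (SE 0.23, limma adjusted p = 0.0212) was largest in replicate 1, at -1.60 against -0.46 and -0.38 in the other pairs. Without replicate 1 it was -0.42 (adjusted p = 0.0804), and the call was also lost without replicate 2 (adjusted p = 0.0550) and in the fit over all probe sets (adjusted p = 0.0509). Gata4, a zinc finger factor that binds chromatin with FOXA in early liver, fell by 0.50 (SE 0.16, adjusted p = 0.0404), and this call ended under 7 of 13 alternatives and was not made for its other probe set (-0.45, adjusted p = 0.0644). Nr5a2, a nuclear receptor of acinar cells and liver, ranged widely within groups, at 408.5, 545.1 and 1244.1 with dexamethasone, against 859.6, 619.9 and 1263.6 in controls, and did not pass (-0.43 ± 0.20, adjusted p = 0.134). It passed with hybridization control scaling (-0.67, limma adjusted p = 0.0408) and without replicate 3 (-0.63, adjusted p = 0.0177), and was -0.1 without replicate 1. Ptf1a, the acinar fate factor, rose by 0.61 ± 0.11, and Cebpb, a leucine zipper factor that shares liver enhancers with FOXA and HNF4A, by 3.84 ± 0.17. Nr3c1, the glucocorticoid receptor, fell by 0.48 (SE 0.13, adjusted p = 0.0157), a call lost with 75th percentile centring (adjusted p = 0.0513) and without replicate 1 (adjusted p = 0.0782), and not made for its other probe set (-0.47, adjusted p = 0.175).

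The partners that were too dim to test included Gata6, at 134.1, 223.1 and 158.4 with dexamethasone, against 108.9, 127.5 and 64.1 in controls, and Nr1i2, the pregnane X receptor, at 162.6, 162.2 and 206.5 with dexamethasone, against 117.6, 133.7 and 80.0 in controls. Both were above background on all 6 arrays, and neither passed in the fit over all probe sets (limma adjusted p = 0.101 and 0.150). Pdx1, the pancreas and islet homeobox factor, Cebpa, Ppara, Ppargc1a, Nr2f1 and Nr1h4 were not well above background on any array. Hnf4g, Creb3l3 and Sox9 were not analysed here.

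**Figure D3:**
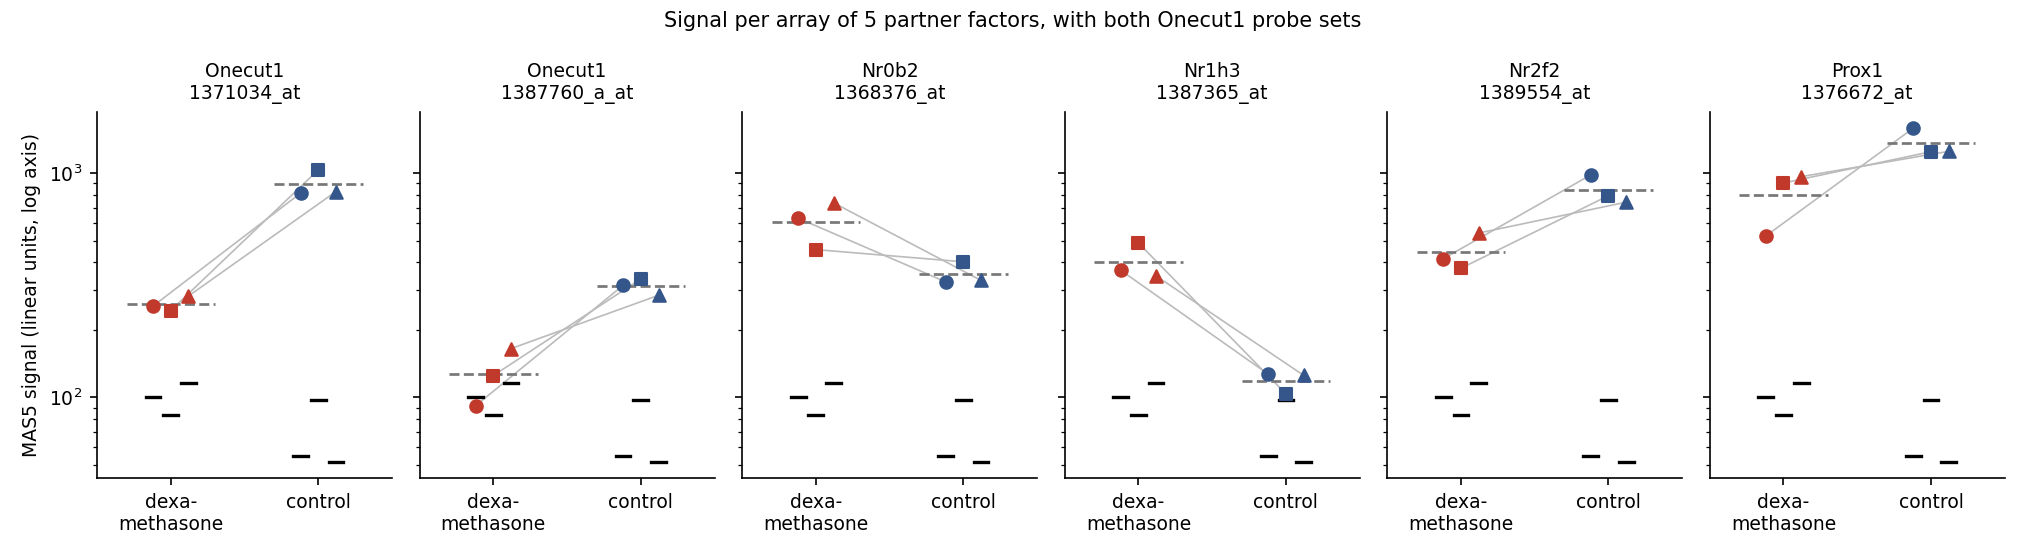
MAS5 signal (log axis) per array of Onecut1 (both probe sets), Nr0b2, Nr1h3, Nr2f2 and Prox1, with colours, symbols, dashed means and background bars as in the plot of the members. All treated arrays lie below all control arrays for both Onecut1 probe sets, the Nr2f2 probe set drawn and Prox1, and above them for Nr0b2 and Nr1h3. Groups did not overlap in 49.7% of all probe sets tested, and those of the other Nr2f2 probe set, not drawn, overlapped.

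Genes that HNF4A is known to activate in liver mostly rose where they could be measured, with exceptions among its best known bile acid targets. Of 31 listed, 22 were on the array, 12 could be tested, 7 rose, 1 fell and 4 did not pass, against 17.0% of all genes tested called higher and 21.4% lower. The median was 1.11, against -0.04 over all genes tested, and it was 0.81 in the fit over all probe sets and 2.02 with the 60th percentile filter. The list was drawn from liver biology with earlier results of these data known, several members are themselves induced by glucocorticoids in liver, and a change in a target does not show that HNF4A caused it.

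Apoa1, which encodes the core apolipoprotein of HDL particles, rose most, to 3073.3, 6149.4 and 1100.0 with dexamethasone, against 160.1, 310.2 and 133.3 in controls (3.87 ± 0.24, limma adjusted p = 6.3e-06). Cyp27a1, a mitochondrial sterol hydroxylase of bile acid synthesis, was the most even, at 10802.5, 11133.0 and 11614.4 with dexamethasone, against 1498.4, 1270.8 and 1500.1 in controls (2.98 ± 0.11, adjusted p = 5.1e-07). Ttr, the thyroxine carrier transthyretin and a target of both HNF4A and FOXA, read 7128.8, 12961.5 and 1347.7 with dexamethasone, against 995.9, 1724.9 and 349.8 in controls. Its groups overlapped because replicate 3 was low in both arms, yet the paired rises were 2.84, 2.91 and 1.95 (2.57 ± 0.18, adjusted p = 1.5e-05 with the replicate block and 0.0256 without it).

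The other risers were Pck1, Apoc3, F10 and Serpina1, at 1.08 to 2.55 on the log2 scale, of which Serpina1 did not pass without the replicate block (limma adjusted p = 0.0753). Ambp, the precursor of bikunin, fell to 269.1, 403.8 and 265.4 with dexamethasone, against 726.7, 1291.4 and 506.7 in controls (-1.35 ± 0.18, adjusted p = 0.000487). Cyp7a1 and Cyp8b1, the enzymes that start and branch bile acid synthesis and that HNF4A activates in liver, changed by 0.15 ± 0.28 and 0.13 ± 0.17 and did not pass, nor did Apob or Pklr. Another 10 were too dim to test. Among these, Apoh, a plasma lipoprotein-binding protein, was not above background in any control and above it on 2 of 3 dexamethasone arrays. It read 154.0, 302.9 and 112.0 with dexamethasone, against 16.9, 70.1 and 14.1 in controls. The treated geometric mean was 2.67-fold the background level of the controls, which is not a strict bound. Apoh passed in the fit over all probe sets (limma adjusted p = 0.00245). A dimmer second probe set of Apob, kept out of the test, read 156.4, 355.1 and 103.8 with dexamethasone, against 16.5, 54.6 and 15.8 in controls. None of these controls and 2 of 3 dexamethasone arrays were above background. The treated geometric mean was 2.76-fold the background level of the controls, again not a strict bound (limma adjusted p = 0.00142 in that fit). The brighter probe set, at 0.11 ± 0.20, did not pass.

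FOXA targets in liver, islet and lung overlapped this list, with 11 genes on both, of which 4 were tested. Of 26 listed, 19 were on the array, 9 could be tested, 6 rose, Hnf4a itself among them, and 3 did not pass, against 17.0% of all genes tested called higher and 21.4% lower. Tat, also among the 6, passed the filter only through its dexamethasone arrays, so this count partly repeats the filter and the result for Hnf4a. The median of 1.08 holds for the bright members, since it was 0.31 in the fit over all probe sets and 1.82 with the 60th percentile filter. By limma 0 fell, also at an unadjusted p below 0.05. With hybridization control scaling, 1 fell. Tat, the tyrosine aminotransferase gene at which FOXA and the glucocorticoid receptor bind together in liver, read 960.6, 2002.7 and 1138.5 with dexamethasone, against 23.2, 34.0 and 13.3 in controls, none of them above background, and was at least 20.0-fold higher (adjusted p = 1.2e-06). Igfbp1, which encodes a binding protein for insulin-like growth factors, rose to 2254.2, 4295.4 and 2557.5 with dexamethasone, against 303.8, 298.9 and 258.3 in controls (3.35 ± 0.18, adjusted p = 3.1e-06).

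Islet genes of the FOXA list did not pass or were too dim. Kcnj11, a subunit of the potassium channel that Foxa2 sustains in mouse beta cells, changed by 0.26 ± 0.22 (limma adjusted p = 0.386), and Hadh, another beta cell target of Foxa2, by -0.10 ± 0.10 (adjusted p = 0.504). Abcc8, the partner of Kcnj11 in that channel, was too dim to test, and Gcg and Pdx1 were not above background on any array. Of the lung targets, Sftpb was not above background on any array, and Scgb1a1 read 60.1, 75.6 and 54.4 with dexamethasone, none above background, against 57.3, 101.5 and 68.7 in controls, all just above it. Whether liver and islet targets differed was not tested.

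**Figure D4:**
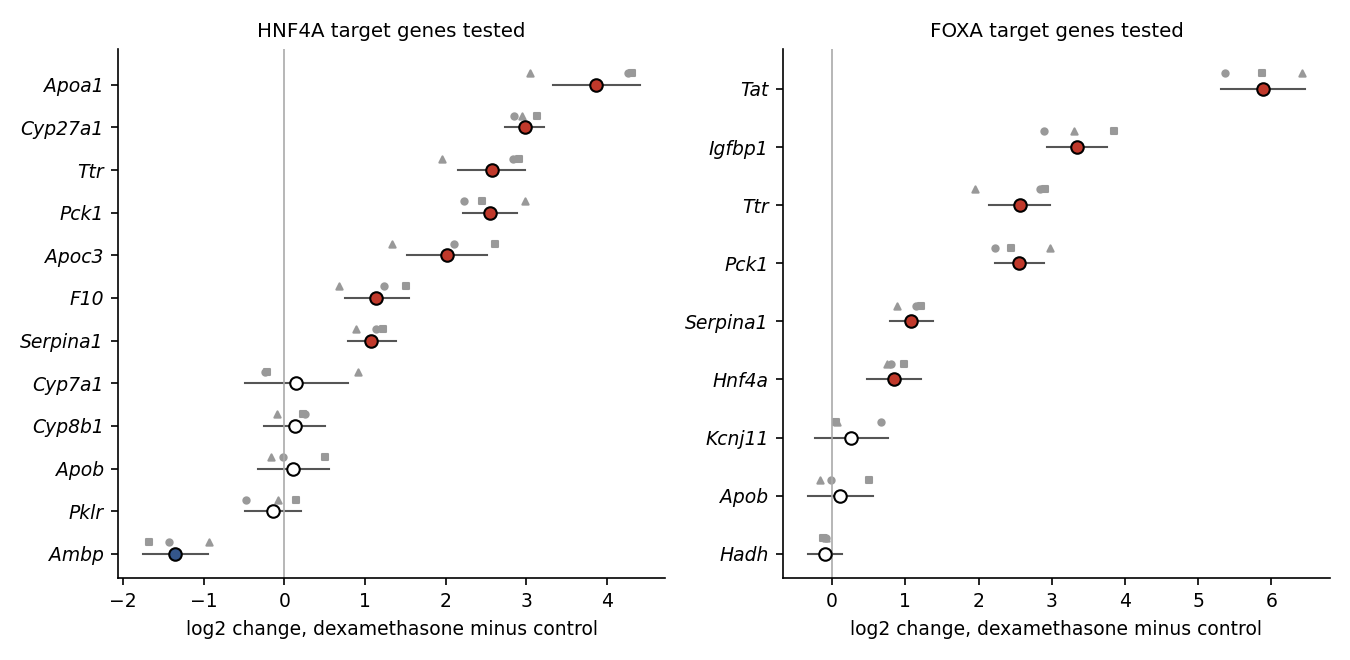
Log2 change (dexamethasone minus control) of the tested HNF4A and FOXA target genes, with limma 95% confidence intervals as lines, filled points where the adjusted p is below 0.05, and grey circles, squares and triangles for the paired changes of replicates 1, 2 and 3. Ambp is the only tested target past the threshold on the lower side, and replicate 3 shows the smallest rise for Apoa1, Ttr, Apoc3, F10 and Serpina1.

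Other forkhead genes were set beside the FOXA members to see how common such changes were in the family. Of 20 on the array, 10 could be tested, 2 rose, 1 fell and 7 did not pass, with a median of 0.16 that became 0.01 without replicate 3 and -0.09 with hybridization control scaling, where 2 rose and 3 fell. Called forkheads made up 30.0% of those tested, against 38.4% of all genes. Of those called, Foxo1 passed the filter only through its dexamethasone arrays and Foxm1 only through its control arrays. The counts and this share thus partly repeat the filter. Foxo3, a factor restrained by insulin signalling, rose to 3100.1, 2860.2 and 3351.8 with dexamethasone, against 1583.7, 1665.5 and 1555.7 in controls (0.95 ± 0.12, limma adjusted p = 0.000341). Foxo1, which acts in liver glucose control, read 285.3, 276.3 and 373.9 with dexamethasone, against 81.7, 208.6 and 119.9 in controls (1.28 ± 0.28, adjusted p = 0.00785, and 0.0616 without replicate 1). The other probe sets of Foxo1 and Foxo3 were not above background on any array. Foxm1, which drives mitotic genes, fell to 74.9, 46.9 and 121.4 with dexamethasone, 1 of them above background, against 657.8, 603.7 and 543.5 in controls (-2.99 ± 0.28, adjusted p = 7.4e-05). With the background level in place of the dimmer treated signals, the geometric means were 100.6 with dexamethasone and 599.8 in controls, so the fitted size of this fall is uncertain.

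**Figure D5:**
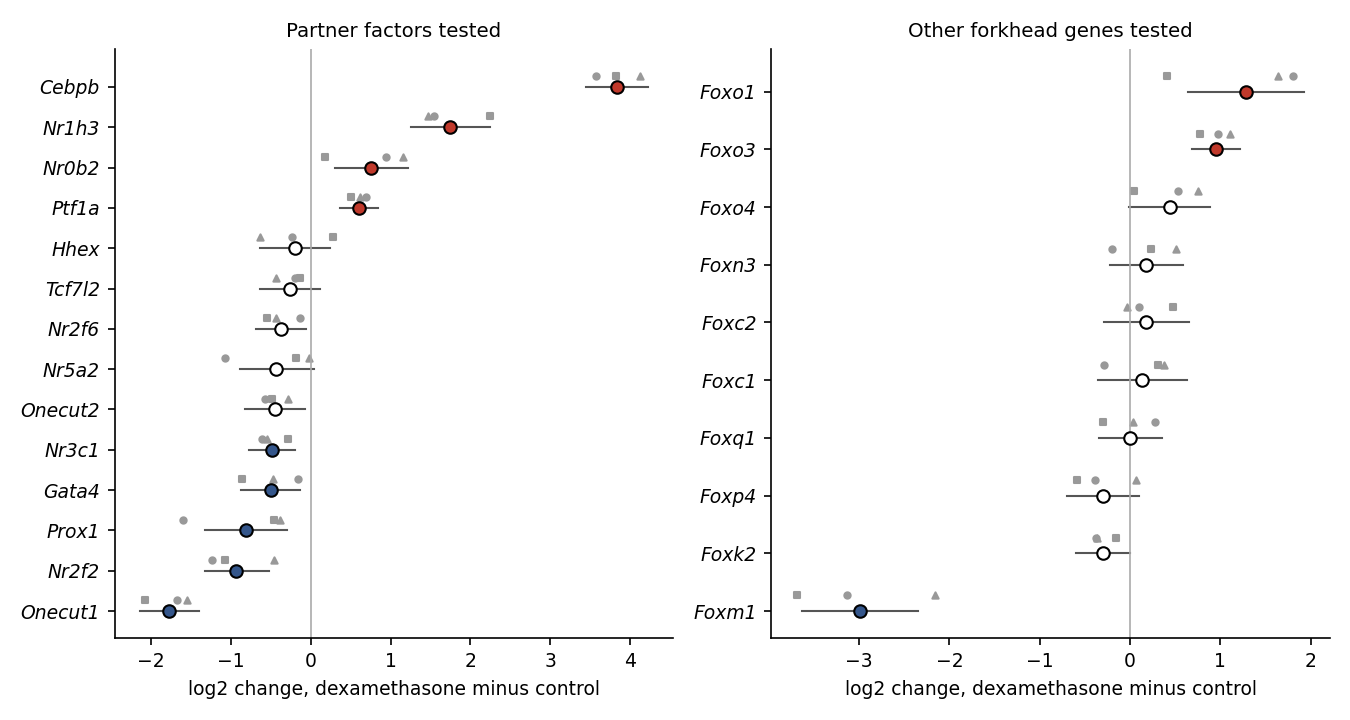
Log2 change (dexamethasone minus control) of the tested partner factors and of the other tested forkhead genes, drawn with intervals, fills and paired changes as in the plot of the target genes. Onecut1 at -1.77 and Foxm1 at -2.99 are the lowest of their panels, and Cebpb at 3.84 and Foxo1 at 1.28 the highest.

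Genes with the most similar profiles were sought among 7050 other tested genes, as the root mean square distance of log2 signals centred on each gene's mean, over 6 arrays. For Hnf4a they were Gas5 (distance 0.071), Zfp775 (0.075) and Ndufa2 (0.076), which were higher with dexamethasone by 0.83, 0.92 and 0.71. For Foxa2 they were Pcif1 (0.024), Bmp7 (0.031) and Ocel1 (0.040), at -0.35, -0.34 and -0.29, none past the threshold. For Foxa3 they were Slc25a30 (0.049), Sel1l (0.056) and Apob (0.059), at 0.16, 0.17 and 0.11, and none passed the threshold. Picked on the same arrays, these genes had to change much like their member, so their changes are not a separate result.

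The acinar identity of the line was checked on 10 acinar markers, all above background on all 6 arrays, of which 7 rose (17.0% of all genes tested did), with a summed signal of 116947 to 130932 with dexamethasone and 80839 to 95767 in controls. Hepatocyte markers were mixed: of 14, 8 were tested and 5 of these rose (17.0% of all genes tested did). Tat and Hpd, among these 5, passed the filter only through their dexamethasone arrays. Of the 14, 8 were above background on all dexamethasone arrays and 7 on all control arrays. The summed signal of the 14 was 10699 to 34667 with dexamethasone and 1736 to 4178 in controls. Afp, Apoa2 and Cyp3a2 were below background on every array, and the highest Alb signal was 146.2 with dexamethasone and 110.1 in controls. A second Alb probe set, too dim to test, read 126.0, 129.3 and 119.3 with dexamethasone, against 69.9, 75.4 and 39.0 in controls. It was above background on 3 dexamethasone arrays and 1 control array, and did not pass in the fit over all probe sets (1.08 ± 0.33, limma adjusted p = 0.0586). Of 5 duct markers on the array 3 were tested and 2 of these fell (21.4% of all genes tested did), with a summed signal of 1050 to 2321 with dexamethasone and 3113 to 4346 in controls. Of 8 islet markers, 3 were below background on every array and only Ins1 was tested, without passing, and the summed signal was 605 to 660 with dexamethasone and 496 to 747 in controls. Of 9 stromal, endothelial or immune markers, 3 were below background on every array and 2 were tested. Pecam1 rose (1.05, limma adjusted p = 0.0143), as did 17.0% of all genes tested, and Col1a1 did not pass. Pecam1 passed the filter only through its dexamethasone arrays. The summed signal of the 9 was 884 to 1014 with dexamethasone and 620 to 722 in controls. The part of these shifts in the values of the members and their partners was not tested. In RNA from whole cultures, a change per cell and a change in the share of cells that express a gene cannot be told apart.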

How the data were processed

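RNA from 3 dexamethasone-treated and 3 control cultures was measured on 6 arrays. The deposited intensities are MAS5 signals on a linear scale, made by the authors with the MAS5 method in GCOS (per the submitters' processing notes). For versions, masks and scaling settings, no source used here gives a value. The mean of each array was 500.1 after 2% was trimmed at each end, so levels are relative to the array. Of 15923 probe sets, 57 array controls were left out. From the platform annotation with symbols updated to GRCr8, 12783 had 1 symbol, 312 several and 2771 none.

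Signals were taken to log2 (4 values of 0 set to 0.1) and probe sets with a mean at or above the 40th percentile, a signal of 147.6, were tested. The mean was taken over both groups, so a gene bright in 1 group alone could enter. Among called genes named here, Cebpb, Nr1h3, Tat, Hpd, Foxo1, Pecam1 and Foxm1 had a mean below 147.6 in 1 group. So did the dimmer probe set of Onecut1, with dexamethasone. Treatment and replicate number were fitted with limma 3.58.1 in R 4.3.3 (intensity trend, Benjamini-Hochberg over 9520 probe sets, threshold 0.05). A gene was represented by its brightest probe set. The block follows the series' design text, which calls the cultures pairs. Deviations from the group means correlated by -0.095, 0.112 and 0.211 within replicates 1 to 3. Between different replicate numbers they ran from -0.248 to 0.175, the highest for dexamethasone 1 with control 2. These values alone thus do not single out the pairs. The fit was also run on simulated data with a far smaller share of changed probe sets. Its error rate on these arrays was not measured. The precision is limited by 3 arrays per group.

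Lists were counted, with no set test. Members and lists were chosen with earlier results of these data known. Named genes were the members, the 3 largest rises and falls past the threshold per list, a fixed set of partners and the 3 nearest profiles per member. Forkhead genes were matched by symbol, and Foxred1, an oxidoreductase gene, was left out after its symbol was seen. Where all arrays of a group were below background, folds are taken against that level. They are bounds only where the other group was above background on all arrays. Alternatives were other scalings, filters, a pseudocount of 18.6, no intensity trend, no replicate block and leaving out each replicate. Some items of the lists are not reported here.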

Additional observations from a re-analysis of the deposited data

How the results depend on the processing

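The rise of Hnf4a passed under all 13 alternatives to its fit, at 0.59 to 0.97 on the log2 scale, and at 0.77 to 0.89 without 1 replicate. Foxa3 passed under none, with -0.00 to 0.30 without 1 replicate. Foxa2, not called as reported, passed with quantile normalization (-0.47), hybridization control scaling (-0.60), the 60th percentile filter (-0.36) and no replicate block (-0.36), and ran from -0.50 to -0.25 without 1 replicate, passing without replicate 1. The dim probe sets, fitted over all probe sets, gave 0.86 to 1.71 for Foxa1 and 0.40 to 0.84 for the second Hnf4a probe set without 1 replicate, and passed in none. The difference Hnf4a minus Foxa1 ran from -0.93 to 0.02 without 1 replicate, and turned without replicate 3. With no replicate block the number of probe sets called was 3542, against 3531 as reported, and without 1 replicate 2381 to 3023. The fit without replicate 3 gave the 3023. There the SE of Hnf4a was larger than as reported (0.25 against 0.16) but its limma adjusted p smaller (0.00242 against 0.00388), so calls of that fit carry less weight. Among the 3 members tested, the block changed the call of Foxa2 alone. Foxa1 and the second Hnf4a probe set were not fitted without it.

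Partner factors called lower numbered 3 with 75th percentile centring, 9 with hybridization control scaling, 3 with no filter and 3 to 6 without 1 replicate, against 5 as reported. FOXA targets called lower numbered 1 with hybridization control scaling. Other forkheads called lower numbered 3 with hybridization control scaling, and with the 60th percentile filter, which leaves fewer genes tested, 0 were lower and 1 higher. Without 1 replicate 1 to 2 were higher. Measured against the median of the control probe sets, Foxa1 was above background on all 6 arrays, so its status depends on that choice. The cause of these shifts was not tested. Single outlying arrays were not tested for, since groups hold 3 each.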
